A study of Lupinus albus with 12 samples.

Results

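Cellulose synthases, COBRA-like proteins and proteins with a fasciclin (FAS1) domain were followed in white lupin roots during the first minutes of exposure to sucrose. The genes were chosen by the UniProt protein name in the deposited table, which had to contain cellulose synthase, COBRA, fasciclin or FAS1, a rule that reads no measured value. This gave 51 of 23427 genes. The names divide them into 11 cellulose synthases, 10 putative cellulose synthases described as UDP-forming, 5 COBRA-like proteins, 17 FAS1 domain proteins and 8 fasciclin-like arabinogalactan proteins. The protein name of a putative cellulose synthase, Lalb_Chr18g0049281, also contains a C2H2 transcription factor.

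Cellulose is made at the plasma membrane by rosette-shaped complexes of cellulose synthases, which link glucose from UDP-glucose into chains that leave the cell and form microfibrils in the wall. COBRA proteins are held at the outer face of the membrane by a lipid anchor, and in Arabidopsis the founding member is needed for oriented microfibrils and for the directed expansion of root cells. Fasciclin-like arabinogalactan proteins are heavily glycosylated proteins of the cell surface that carry FAS1 domains, which are known from other organisms as adhesion domains, and in Arabidopsis some members are needed for normal root cell expansion or for the properties of fibre walls. Of the 51 genes, 20 carried the GO term cellulose biosynthetic process, 5 carried cellulose microfibril organization, 28 were assigned to the plasma membrane and 25 had no GO process.

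Wildtype white lupin of the cultivar Amiga, a legume that forms cluster roots, was grown hydroponically in Hoagland solution. Roots received 10 mM sucrose for 10, 15 or 20 min, or 0 min as control, and root sections that included the tip were harvested. Each time point had 3 libraries of Oxford Nanopore cDNA, 12 in all, and the 4 libraries with the same replicate number shared a flow cell, so that a replication here is also a flow cell. Labels and methods differ on the number of plants behind a replicate (3 plants per replicate in the labels), and whole root sections mix many cell types, so that fewer cells of a type and less RNA per cell cannot be told apart. All libraries, control included, come from plants whose solution was complete in nutrients.

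The deposited values are whole numbers named CPM, but they sum to between 184071 and 407780 per library (median 323848). The scale behind a value of 1, and so the number of reads it stands for, is therefore unknown. Control replicate 2 and 15 min replicate 1 had the lowest totals, and the totals of replication 3 lay between 339599 and 407780, against 196413 to 336407 in replication 1 and 184071 to 356992 in replication 2. Summed markers of leaf tissue (30 genes) took 0.0336% to 0.226% of a library, laccases of lignifying vessels (15 genes) 0.00587% to 0.0141%, and genes of dividing cells (35 genes) 0.461% to 1.24%. For the endodermis the only phrase searched, Casparian strip membrane protein, matched no protein name, so that the endodermis was not assessed. The marker sums overlapped between sucrose and control libraries for leaf (0.0336% to 0.226% with sucrose, against 0.0536% to 0.0630% in control), for vessels (0.00587% to 0.0141% with sucrose, against 0.00638% to 0.0112% in control) and for dividing cells (0.461% to 0.934% with sucrose, against 0.621% to 1.24% in control), and their part in the results was not tested.

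Most of the 51 genes were at low values. In 12 of them no library was above 1, and 26 were above 0 in all 12 libraries, as were 38.2% of all genes in the table. Tests were run on genes that reached 1 in 3 or more libraries, as 41 of the 51 did. They were 10 cellulose synthases, 6 putative cellulose synthases, 2 COBRA-like genes, 16 FAS1 domain genes and 7 fasciclin-like genes. The other 10 never exceeded 2 and are described only by their values. Of the 41 genes tested, 18 stayed below 10 in every library and 19 had a mean of at least 5. Together the 51 genes made up 0.0648% to 0.185% of the total of a library, with a median of 0.117%. The map of deposited values shows how few genes held most of that sum.

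**Figure D1:**
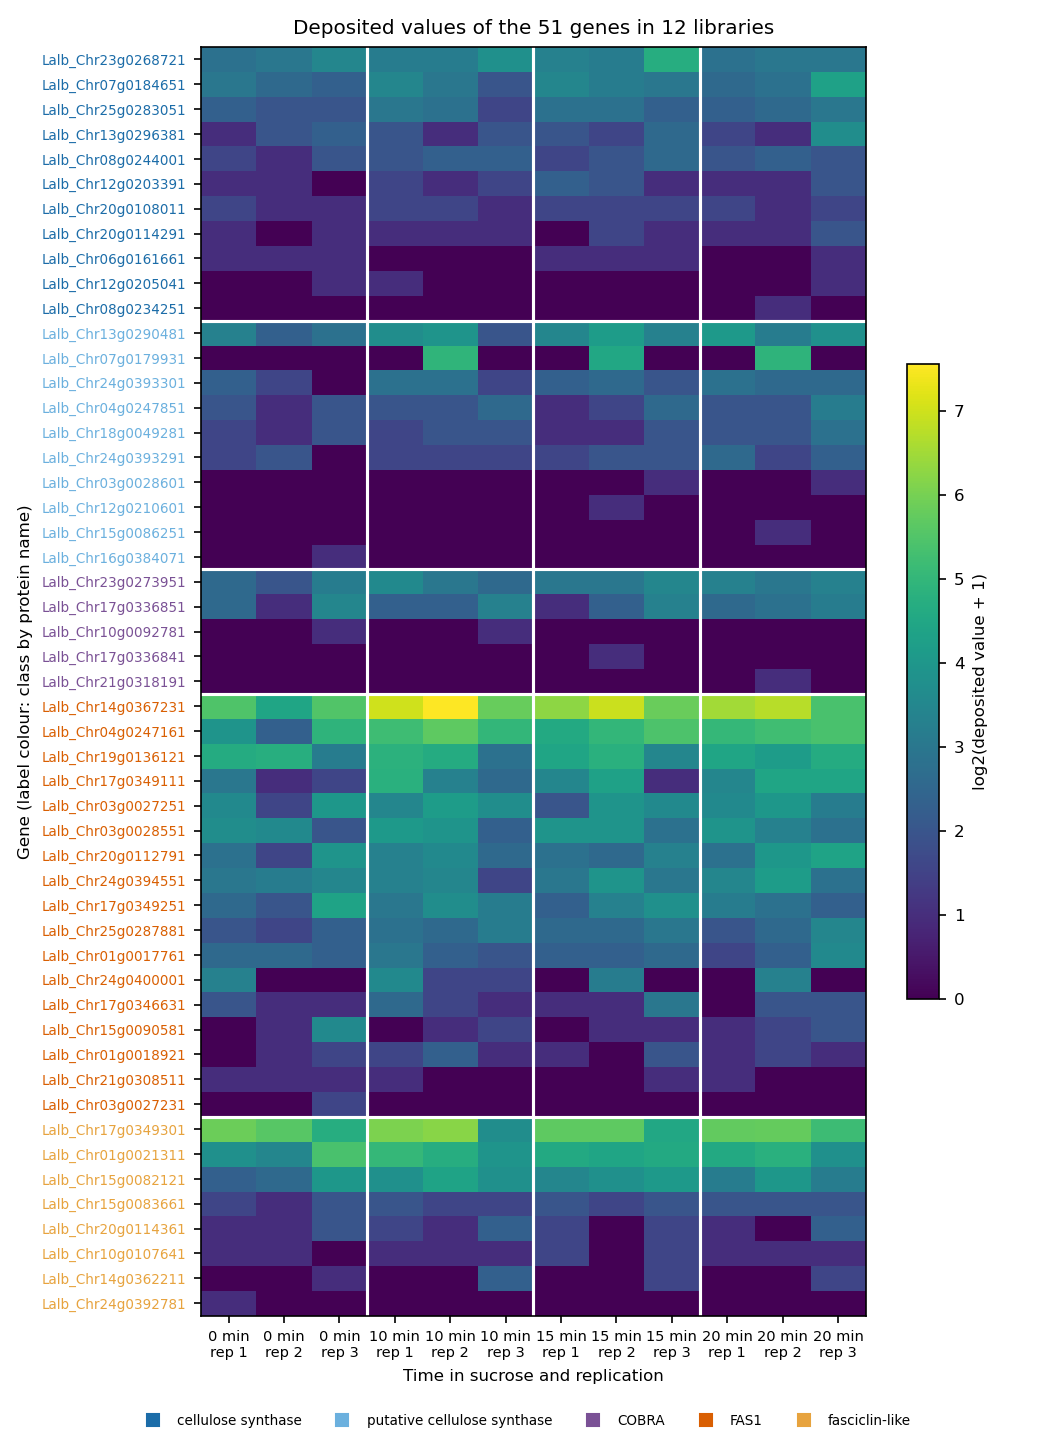
Deposited values of the 51 genes in each of the 12 libraries, as log2(value + 1), with rows grouped by class of protein name and columns by time in sucrose (0 min is the control) and replication. A FAS1 domain gene and a fasciclin-like gene, Lalb_Chr14g0367231 and Lalb_Chr17g0349301, have the highest means of the 51, though not the highest value in every library, and 12 genes never exceed a value of 1.

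The most abundant gene was Lalb_Chr14g0367231, a FAS1 domain gene on chromosome 14 (9284594 to 9285752 in the CNRS_Lalb_1.0 annotation), which alone made up 21.9% of the values of all 51 genes and 38.7% of those of its class. Values of this gene were 44, 21 and 45 in the control libraries of replications 1, 2 and 3. They were 128, 188 and 55 after 10 min, 76, 123 and 56 after 15 min, and 91, 107 and 41 after 20 min. Replications 1 and 2 were high at every sucrose time, while replication 3 stayed between 41 and 56 and overlapped the control. The means were 36.7 ± 13.6 in the control, 124 ± 66.6 after 10 min, 85 ± 34.4 after 15 min and 79.7 ± 34.4 after 20 min (SD, n = 3 each).

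For tests, the values were scaled between libraries by median-of-ratios size factors (0.701 to 1.28) and analysed as log2(scaled value + 1), so that fold changes of low genes are understated. A gene was called up- or down-regulated where its log2 FC reached 1.5 in size and its unadjusted limma p-value did not exceed 0.05, the thresholds used in the study. On this scale Lalb_Chr14g0367231 had a log2 FC of 1.34 after 10 min (95% interval 0.28 to 2.4), 1.11 after 15 min (0.06 to 2.17) and 0.76 after 20 min (-0.30 to 1.82). The p-value stayed under 0.05 at the first 2 times, but the fold change did not reach the threshold, and the gene was not called at any time. Over all sucrose libraries the log2 FC was 1.07 (standard error 0.40, 95% interval 0.21 to 1.94). After scaling, every sucrose library was above the control library of its own replication (9 of 9), and 8 of 9 were above all controls. In the deposited values 20 min replicate 3, at 41, was below its control at 45. An exact permutation test (two-sided) that moves the control label within each replication gave p = 0.0156 for this gene, the smallest value its 64 assignments allow. So small a value arises only where all sucrose libraries lie on 1 side of their own controls. It thus mostly restates that order, found above the controls in 1.25% of all genes and below them in 1.05%. The permutation p-values here and below were not adjusted over the 41 genes tested. Within replications 1, 2 and 3 the mean difference between sucrose and control was 0.96, 1.94 and 0.32. The unadjusted limma p-value over all sucrose libraries exceeded 0.05 without control replicate 2 (log2 FC 0.91), without replication 1 (1.13) and without replication 2 (0.63). Without replication 3 the log2 FC was 1.49 over all sucrose libraries and 1.82 after 10 min, and the gene was called at that time.

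Another FAS1 domain gene, Lalb_Chr04g0247161 on chromosome 4 (181628 to 183507), had the smallest p-value of the 41 genes for sucrose against control. The control libraries of replications 1, 2 and 3 measured 14, 4 and 29. The values were 36, 51 and 31 after 10 min, 23, 31 and 43 after 15 min, and 32, 37 and 41 after 20 min. In these deposited values the 15 min library of replication 1, at 23, was below the highest control at 29. After scaling, the 9 sucrose libraries lay between 28.8 and 46.1, all above the control libraries at 15.7, 5.71 and 24.3.

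The log2 FC of Lalb_Chr04g0247161 was 1.33 (10 min), 1.25 (15 min) and 1.24 (20 min), each with a standard error of 0.43 and an unadjusted p-value under 0.05. These differences lay close together and below the threshold of 1.5, so that the gene was not called. Over all sucrose libraries it was 1.27 (standard error 0.35, 95% interval 0.49 to 2.04), with an adjusted p-value of 0.999842 (limma, Benjamini-Hochberg). The exact permutation test within replications (two-sided) gave p = 0.0156. The difference was 0.90, 2.37 and 0.54 within replications 1, 2 and 3. Control replicate 2 had the lowest value, and without that library the log2 FC was 0.74. Without replication 2 it was 0.71 and the unadjusted p-value exceeded 0.05. Without control replicate 3 it was 1.70, past both thresholds, as it was at each time (1.76, 1.67 and 1.67). Without replication 3 it was also called, at 1.67 over all sucrose libraries and at 1.89, 1.56 and 1.55 over the times in order.

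Of the 41 genes tested, 1 was up-regulated after 20 min (against 0.381% of all 19138 genes tested) and 0 were down-regulated (0.209% of all genes). The called gene was Lalb_Chr17g0349111, a FAS1 domain gene that spans 564 bp on chromosome 17 (14866439 to 14867002). Its control values were 7, 1 and 2 in replications 1, 2 and 3. With sucrose they were 27, 9 and 5 after 10 min, 10, 19 and 1 after 15 min, and 10, 21 and 21 after 20 min. The 20 min libraries were all above the control libraries, but after 15 min replication 3 was as low as the lowest control.

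The log2 FC of Lalb_Chr17g0349111 was 1.48 (10 min), 1.05 (15 min) and 2.02 (20 min), each with a standard error of 0.85, and the 95% interval at the last time was 0.17 to 3.87 (adjusted p = 1, limma). Over all sucrose libraries it was 1.52 (standard error 0.69, 95% interval 0.0046 to 3.03), with 8 of 9 sucrose libraries above the control of their replication. The exact permutation test within replications (two-sided) gave p = 0.078 for this gene. Its call after 20 min did not hold without control replicate 2 (log2 FC 1.69), control replicate 3 (1.76), 20 min replicate 2 (1.93) or 20 min replicate 3 (1.78), each time because the unadjusted p-value exceeded 0.05. It was also lost without replication 2 (1.59) or replication 3 (1.55). The call over all sucrose libraries did not hold without control replicate 2 or 3, 10 min replicate 1 or 2, 15 min replicate 1 or 2, or 20 min replicate 2 or 3 (log2 FC 1.19 to 1.55), or without replication 2 (0.98). Adding 5 instead of 1 to the scaled values gave a log2 FC of 1.27 after 20 min.

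**Figure D2:**
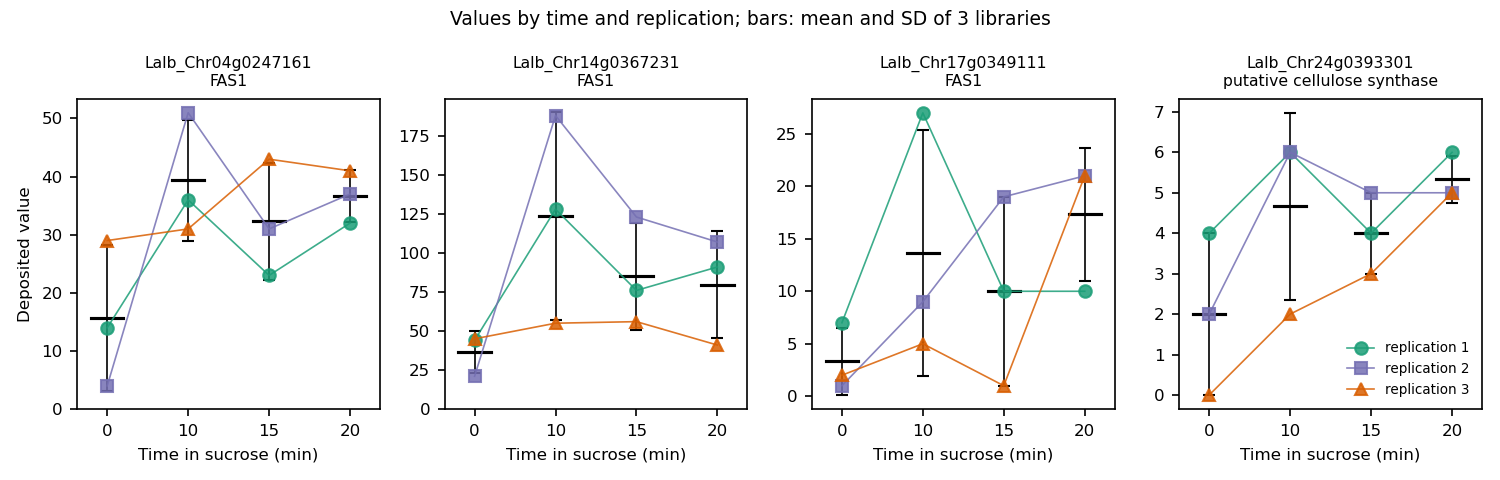
Deposited values (vertical axis, own scale in each panel) against time in sucrose for 3 FAS1 domain genes and a putative cellulose synthase, with 1 line and symbol per replication and black bars for the mean and SD of 3 libraries. In Lalb_Chr04g0247161 the control libraries range from 4 to 29 and the sucrose libraries from 23 to 51. In Lalb_Chr14g0367231 replication 3 stays between 41 and 56 at all 4 times.

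No other gene of the 51 was called at any time against the control. At 10 min the count was 0 up and 0 down (against 0.423% and 0.11% of all genes), and after 15 min it was again 0 up and 0 down (0.486% and 0.172%). With all sucrose libraries together 1 was up, again Lalb_Chr17g0349111, and 0 were down (0.303% and 0.115%). Between 20 and 10 min of sucrose 0 were higher and 0 lower (0.167% and 0.11%). By the unadjusted limma p-value alone, 3 of the 41 genes were at or below 0.05 after 10 min (2.06% of all genes), 2 after 15 min (2.4%), 3 after 20 min (2.89%) and 5 over all sucrose libraries (2.88%). No adjusted p-value of the 41 genes was at or below 0.05 in a comparison with the control. Between 20 and 10 min, 0 of the 41 reached an unadjusted 0.05. Single libraries decided some of these counts. Without control replicate 1, Lalb_Chr14g0367231 (1.53) and Lalb_Chr17g0349111 (2.08) were called up after 10 min and the FAS1 domain gene Lalb_Chr15g0090581 (-1.70) down after 15 min. Without 10 min replicate 3, Lalb_Chr14g0367231 (1.79) was called after 10 min, and without 15 min replicate 3, Lalb_Chr17g0349111 (2.09) and the cellulose synthase Lalb_Chr12g0203391 (1.51) were called after 15 min. Without replication 3, Lalb_Chr17g0349111 was called after 10 min (1.69) and 15 min (1.83).

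The median log2 FC of the 41 genes over the times in order was 0.13, 0.25 and 0.23, beside 0.01, 0.01 and 0.04 for all genes tested. A positive log2 FC was found in 31, 29 and 27 of the 41 genes (75.6%, 70.7% and 65.9%), beside 51.1%, 52.3% and 54.8% of all genes. These 3 comparisons share the control libraries. Among the 41 genes, the putative cellulose synthase Lalb_Chr07g0179931 was above 0 only in sucrose libraries. It was tested through them alone, so its positive direction was fixed in advance. When replication 2 was left out, the positive genes were 22, 27 and 28 of 40 tested. When replication 3 was left out, they were 26, 24 and 22 of 39. Among the 16 FAS1 domain genes, with all libraries, 11, 11 and 7 were positive. Without scaling between libraries the median of all genes was itself 0.19, 0.06 and 0.26, so the differences are given relative to scaled values. In 1 of the 41 genes, Lalb_Chr04g0247161, every sucrose library exceeded every control library after scaling (0.298% of all genes), and in 0 all were below (0.214%). On the same scale every sucrose library was above the control of its own replication in 4 of the 41 genes (1.25% of all genes), and below it in 0 (1.05%). The 4 were Lalb_Chr04g0247161, Lalb_Chr14g0367231, the cellulose synthase Lalb_Chr08g0244001 and the putative cellulose synthase Lalb_Chr24g0393301. In the deposited values this held for 1 gene, Lalb_Chr04g0247161 (0.737% of all genes), and in 0 were all below (0.0941%), and no gene of the 41 had every sucrose library above every control library.

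**Figure D3:**
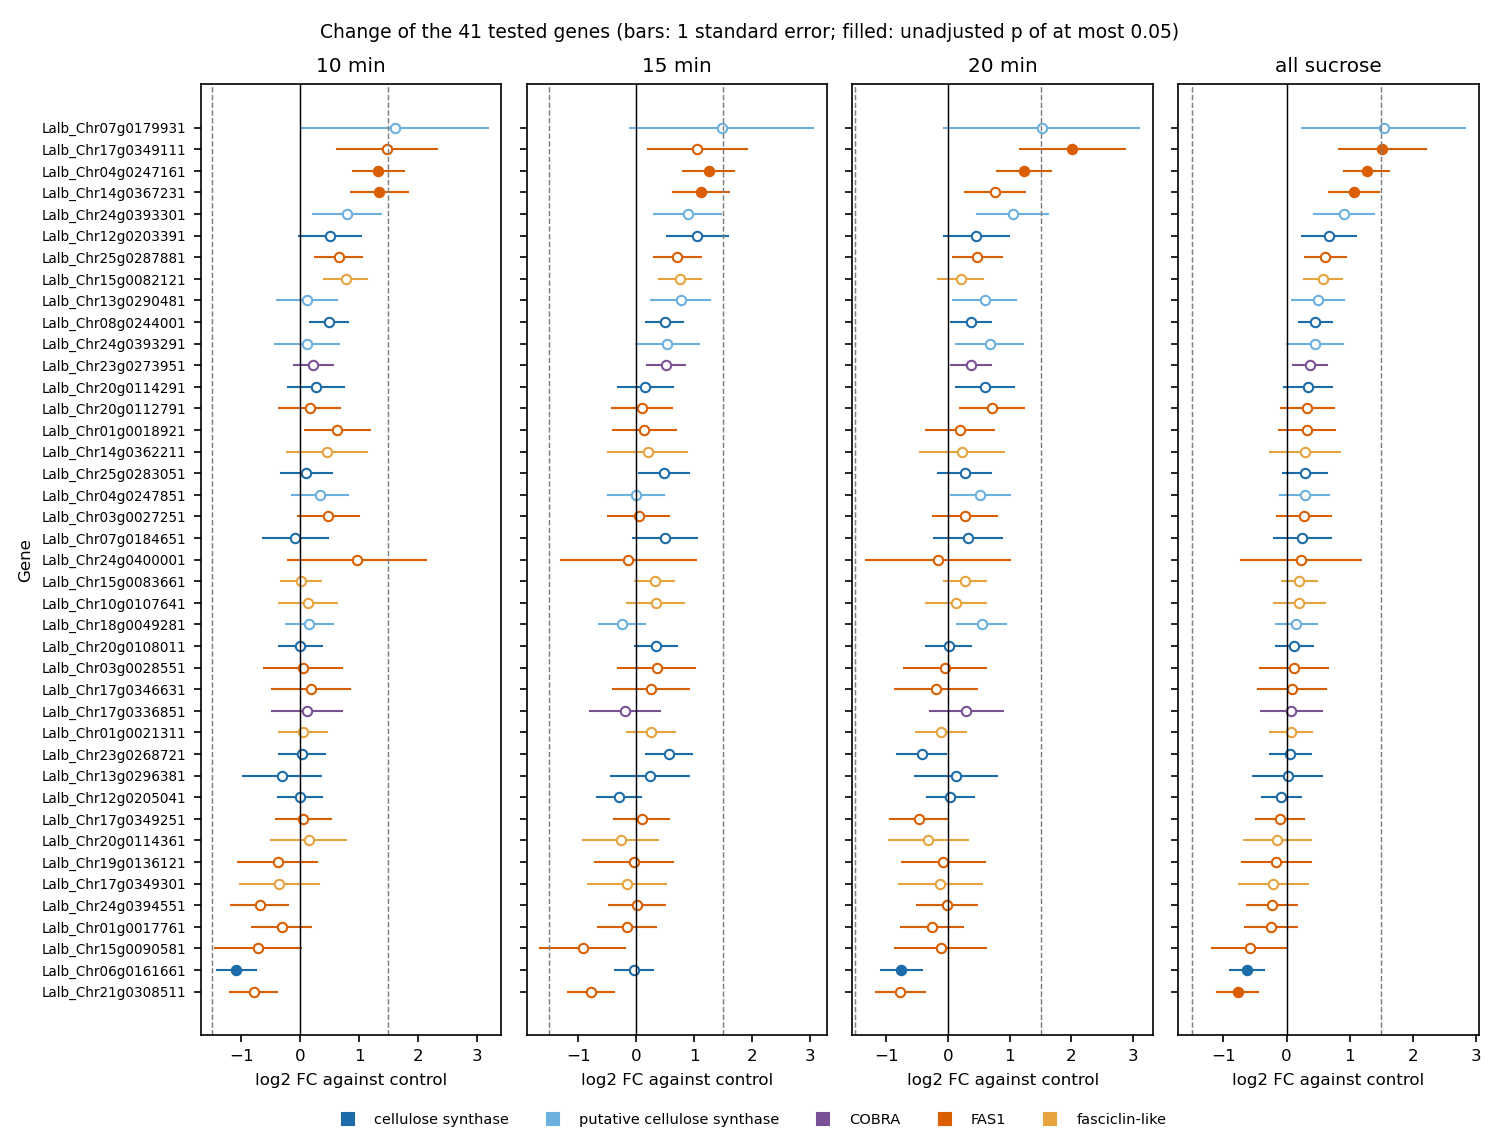
Log2 FC against control of the 41 genes tested at 10, 15 and 20 min and over all sucrose libraries (horizontal axes), ordered by the last panel and coloured by class, with bars of 1 standard error, filled points where the unadjusted p-value did not exceed 0.05 and dashed lines at a log2 FC of 1.5 in size. Lalb_Chr17g0349111 is the filled point past the line after 20 min, at 2.02, and most other genes lie within 1 of zero.

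No cellulose synthase, the catalytic subunit of the complex, was called with sucrose. Their sum was 22 to 28 in the control, 29 to 37 in the 10 min libraries, 35 to 51 after 15 min, and 24 to 58 after 20 min. These sums are not scaled, and library totals differ. As a share of the library the sum was 0.00687% to 0.0120% in the control and 0.00740% to 0.0110% after 10 min. It was 0.0117% to 0.0188% after 15 min and 0.00756% to 0.0171% after 20 min. The shares at each time overlapped the control. Of the 10 genes tested, 0 were called, and the median log2 FC was 0.02 after 10 min, 0.41 after 15 min and 0.20 after 20 min. The most abundant was Lalb_Chr23g0268721 on chromosome 23 (2309221 to 2315045), with 28.3% of the class. Values of this gene were 6, 7 and 10 in the control, 8, 8 and 13 after 10 min, 9, 8 and 25 after 15 min, and 6, 7 and 7 after 20 min. The value of 25 in 15 min replicate 3 was the only library above 13, and the groups overlapped. Over all sucrose libraries the log2 FC of this gene was 0.06, with a 95% interval of -0.64 to 0.76.

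The next most abundant cellulose synthases read high in replication 3 after 20 min. Lalb_Chr07g0184651 measured 7, 5 and 4 in the control, 10, 7 and 3 after 10 min, 10, 8 and 7 after 15 min, and 5, 6 and 19 after 20 min. Lalb_Chr25g0283051 lay between 2 and 7 in all libraries, and reached 7 in that library and in 10 min replicate 1. Lalb_Chr13g0296381 had 12 in 20 min replicate 3, against 1 to 5 in every other. In the same library the summed share was the highest of all libraries for leaf markers (0.226%) and vessel laccases (0.0141%). It was the lowest for genes of dividing cells (0.461%). The part of these differences in the values was not tested.

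Lalb_Chr08g0244001, on chromosome 8 (15511790 to 15517609), was above 0 in all 12 libraries. Values of this gene were 2, 1 and 3 in the control, 3, 4 and 4 after 10 min, 2, 3 and 5 after 15 min, and 3, 4 and 3 after 20 min. Its log2 FC over all sucrose libraries was 0.46 (95% interval -0.12 to 1.03), and the exact permutation test within replications (two-sided) gave p = 0.0156. The cellulose synthase with the smallest limma p-value was Lalb_Chr06g0161661, listed at 1 in all 3 control libraries, 0 in all 3 after 10 min, 1 in all 3 after 15 min, and 0, 0 and 1 after 20 min. Its log2 FC was -1.08 after 10 min (95% interval -1.80 to -0.37) and -0.75 after 20 min (-1.47 to -0.04), but the values do not go beyond 0 and 1, and after 15 min it was -0.05.

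No putative cellulose synthase was called either. Their sum was 11 to 20 in the control, 15 to 58 after 10 min, 18 to 51 after 15 min and 33 to 51 after 20 min. The highest sum at each sucrose time was in replication 2, where Lalb_Chr07g0179931 alone added 30, 22 and 29. Without that gene the sums were 11 to 20 in the control, 15 to 28 after 10 min, 18 to 29 after 15 min and 22 to 37 after 20 min. All 6 genes tested had a positive log2 FC over all sucrose libraries, with a median of 0.47 and 0 calls. For Lalb_Chr07g0179931 that direction was fixed in advance, because only sucrose libraries were above 0 and it was tested through them alone. Lalb_Chr13g0290481, the most abundant with 34.0% of the class, measured 9, 4 and 6 in the control, 12, 14 and 3 after 10 min, 10, 17 and 9 after 15 min, and 16, 8 and 13 after 20 min. Its log2 FC over all sucrose libraries was 0.50 (95% interval -0.41 to 1.40). The groups overlapped, with the lowest value of the gene after 10 min in replication 3.

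A pair of putative cellulose synthases lies side by side on chromosome 24, 3824 bp apart. Lalb_Chr24g0393301 (398481 to 403415) measured 4, 2 and 0 in the control, 6, 6 and 2 after 10 min, 4, 5 and 3 after 15 min, and 6, 5 and 5 after 20 min. Its log2 FC was 0.91 over all sucrose libraries (95% interval -0.12 to 1.95), and the exact permutation p-value within replications (two-sided) was 0.0156. Its neighbour Lalb_Chr24g0393291 had 2, 3 and 0 in the control, 2, 2 and 2 after 10 min, 2, 3 and 3 after 15 min, and 5, 2 and 4 after 20 min. Both were listed at 0 in control replicate 3, and without that library the log2 FC of Lalb_Chr24g0393301 over all sucrose libraries was 0.19. Without control replicate 1 the log2 FC of Lalb_Chr24g0393301 after 20 min was 1.55, past both thresholds, and without replication 2 that of Lalb_Chr24g0393291 after 20 min was 1.53, also past both.

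Lalb_Chr07g0179931 is annotated over 271 bp on chromosome 7 (1494824 to 1495094), the shortest span of the 51 genes. It was listed at 30 after 10 min, 22 after 15 min and 29 after 20 min, each time in replication 2 alone, and at 0 in the other 9 libraries, the control of replication 2 included. Of all 23427 genes, 297 (1.27%) reached 20 in a library and were at 0 in 6 or more, this gene among them. The narrower pattern of at least 20 in the 3 sucrose libraries of replication 2 and 0 elsewhere was taken from its values. That this gene showed it was therefore fixed in advance, and no other gene did. The same pattern was found in 0 genes for replication 1 and in 2 for replication 3. Its log2 FC of 1.53 over all sucrose libraries had a standard error of 1.29, sets no bound because all control libraries are at 0, and the difference between sucrose and control rests on replication 2 (4.60 there, 0 in replications 1 and 3).

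Of the 5 COBRA-like genes, 2 were tested and 0 called. Lalb_Chr23g0273951 on chromosome 23 (7394276 to 7397540) held 55.7% of the class, and measured 5, 3 and 8 in the control, 11, 7 and 5 after 10 min, 7, 7 and 10 after 15 min, and 9, 7 and 9 after 20 min. Of its 9 sucrose libraries, 8 were above the control of their replication. Its log2 FC over all sucrose libraries was 0.37 (95% interval -0.22 to 0.96), and the exact permutation test within replications (two-sided) gave p = 0.047.

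Lalb_Chr17g0336851 on chromosome 17 (1588543 to 1592719) had 5, 1 and 10 in the control, 4, 4 and 9 after 10 min, 1, 4 and 9 after 15 min, and 5, 6 and 8 after 20 min. It was highest in replication 3 at every time. The neighbouring gene Lalb_Chr17g0336841, with a gap of 63 bp, was listed at 1 in 15 min replicate 2 and at 0 in the other 11 libraries. The remaining COBRA-like genes reached 1 at most, Lalb_Chr10g0092781 in 2 libraries and Lalb_Chr21g0318191 in 1.

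FAS1 domain and fasciclin-like genes held most of the summed value. The FAS1 domain sum was 89 to 171 in the control, 145 to 354 after 10 min, 175 to 275 after 15 min and 199 to 269 after 20 min, and the fasciclin-like sum was 65 to 88, 50 to 122, 70 to 90 and 66 to 100 at the same times. These sums are not scaled. As a share of the library the FAS1 domain sum was 0.0419% to 0.0582% in the control and 0.0370% to 0.114% after 10 min. It was 0.0473% to 0.0922% after 15 min and 0.0586% to 0.0754% after 20 min. Besides the genes above, 0 FAS1 domain genes and 0 fasciclin-like genes were called. The FAS1 domain genes had a median log2 FC of 0.17 after 10 min, 0.10 after 15 min and -0.04 after 20 min, and the fasciclin-like genes 0.13, 0.25 and 0.13. Lalb_Chr21g0308511 had the lowest log2 FC over all sucrose libraries of the 41 genes, -0.78 (95% interval -1.49 to -0.07), with values of only 0 and 1.

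The most abundant fasciclin-like gene, Lalb_Chr17g0349301 on chromosome 17 (14964637 to 14967664), had 57, 47 and 25 in the control, 66, 73 and 12 after 10 min, 50, 51 and 22 after 15 min, and 53, 54 and 35 after 20 min. It separated by replication, with every library of replication 3 below every library of replications 1 and 2. Its log2 FC over all sucrose libraries was -0.21 (95% interval -1.41 to 0.98). The fasciclin-like gene Lalb_Chr01g0021311 had 13, 10 and 41 in the control, and between 13 and 32 with sucrose. Its difference between sucrose and control was 0.79 within replication 1, 0.53 within replication 2 and -1.13 within replication 3, so that the direction turned with the replication.

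The other FAS1 domain genes overlapped between sucrose and control libraries. Lalb_Chr03g0027251 on chromosome 3 measured 11, 2 and 15 in the control, 10, 17 and 12 after 10 min, 3, 14 and 11 after 15 min, and 11, 15 and 8 after 20 min. Its neighbour Lalb_Chr03g0027231, with a gap of 1414 bp, was listed at 2 in control replicate 3 and at 0 in the other 11 libraries, so that these neighbours differed widely in level. Lalb_Chr17g0349251, 24315 bp from the fasciclin-like gene Lalb_Chr17g0349301, had 5, 3 and 20 in the control, 7, 12 and 8 after 10 min, 4, 9 and 13 after 15 min, and 8, 6 and 4 after 20 min. Its highest value was thus in a control library. Lalb_Chr20g0112791 had 6, 2 and 14 in the control and 5 to 20 with sucrose, the highest value being in 20 min replicate 3. Lalb_Chr25g0287881 measured 3, 2 and 4 in the control, 6, 5 and 8 after 10 min, 5, 5 and 7 after 15 min, and 3, 5 and 10 after 20 min, with 20 min replicate 1 as the sucrose library that did not exceed all controls. Lalb_Chr01g0017761 stayed at 2 to 7 except for 11 in 20 min replicate 3.

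Among the fasciclin-like genes, Lalb_Chr15g0082121 had 4, 5 and 15 in the control, 13, 20 and 13 after 10 min, 10, 13 and 16 after 15 min, and 8, 15 and 8 after 20 min. In replications 1 and 2 every sucrose library was above its control, while in replication 3 only the 15 min library was. Lalb_Chr15g0083661 was found in all 12 libraries at 1 to 3, and Lalb_Chr10g0107641 at 0 to 2. The genes not tested were close to 0 throughout. The putative cellulose synthase Lalb_Chr03g0028601, 21012 bp from the FAS1 domain gene Lalb_Chr03g0028551, was listed at 1 in replication 3 after 15 and 20 min and at 0 elsewhere. Lalb_Chr08g0234251, Lalb_Chr12g0210601, Lalb_Chr15g0086251, Lalb_Chr16g0384071 and Lalb_Chr24g0392781 were each listed at 1 in a single library.

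Per kb of annotated gene span, which includes introns, the FAS1 domain gene Lalb_Chr14g0367231 had a mean value of 70.1. The putative cellulose synthase Lalb_Chr07g0179931, of very short span and found in replication 2 alone, had 24.9, and the FAS1 domain genes Lalb_Chr17g0349111 and Lalb_Chr04g0247161 had 19.7 and 16.5. The fasciclin-like genes Lalb_Chr17g0349301 and Lalb_Chr01g0021311 followed with 15.0 and 13.3. On the same scale of value per kb, the highest COBRA-like gene, Lalb_Chr23g0273951, had 2.25, the next putative cellulose synthase, Lalb_Chr13g0290481, had 2.00, and the highest cellulose synthase, Lalb_Chr23g0268721, had 1.63. Cellulose synthase genes span 5781 to 8040 bp and FAS1 domain genes 564 to 4764 bp, so this order depends in part on dividing by span. Without the division Lalb_Chr14g0367231, Lalb_Chr17g0349301 and Lalb_Chr04g0247161 led, with means of 81.25, 45.4 and 31. The COBRA-like gene Lalb_Chr23g0273951, at 7.33, then came behind Lalb_Chr13g0290481, at 10.1, and Lalb_Chr23g0268721, at 9.5.

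Several of the genes differed between replications. Replication 3 was compared with replications 1 and 2 with time held in the model, and a gene was called at an adjusted limma p-value of at most 0.05 and a log2 difference of at least 1 in size. Of the 41 genes, 3 were higher in replication 3 (against 10.3% of all genes) and 3 were lower (against 4.6%). Among the higher genes, Lalb_Chr14g0362211 was above 0 only in replication 3 and was tested through it alone, so its direction was fixed in advance. At the adjusted p-value alone, 8 of the 41 differed (19.5%, against 20.0% of all genes), a share near that of all genes. Replications held 38.9% of the variation of the 41 genes and time points 19.0%, beside 43.0% and 16.9% for all genes. These are plain shares of the sum of squares, not corrected for the number of groups. Part of each share arises without any real difference, and more so for 4 time points than for 3 replications. The shares of time points are therefore no measure of an effect of sucrose.

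Lower in replication 3 were the fasciclin-like gene Lalb_Chr17g0349301, by a log2 difference of -1.44 (adjusted p = 0.0057), and the FAS1 domain genes Lalb_Chr03g0028551, by -1.42 (adjusted p = 0.0049), and Lalb_Chr19g0136121, by -1.21 (adjusted p = 0.044, limma). Lalb_Chr03g0028551 had 3, 4, 6 and 6 in replication 3 at 0, 10, 15 and 20 min, against 12, 16, 14 and 14 in replication 1 and 11, 14, 14 and 9 in replication 2, with no overlap. Lalb_Chr19g0136121 had 8, 6, 10 and 24 in replication 3, against 17 to 28 in replications 1 and 2, and overlapped them after 20 min. Its call was lost when any single library was left out, other than 20 min replicate 2 or 3 (differences of -1.31 to -0.91).

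Smaller differences were found in 3 further genes. The FAS1 domain gene Lalb_Chr24g0394551 had 10, 2, 7 and 6 in replication 3 at 0, 10, 15 and 20 min, against 7 to 10 in replication 1 and 8 to 17 in replication 2, a log2 difference of -0.85 (adjusted p = 0.036, limma). The fasciclin-like gene Lalb_Chr20g0114361 had 3, 4, 2 and 4 in replication 3, against 0 to 2 in the others (1.02, adjusted p = 0.055, limma). The putative cellulose synthase Lalb_Chr04g0247851 had 3, 5, 5 and 8, against 1 to 3 (0.80, adjusted p = 0.064, limma). The first passed the adjusted threshold but not that on size, and the other two did not pass the adjusted threshold.

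Higher in replication 3 were the fasciclin-like gene Lalb_Chr14g0362211, by 1.55 (adjusted p = 0.0021), the FAS1 domain gene Lalb_Chr15g0090581, by 1.27 (adjusted p = 0.030), and the COBRA-like gene Lalb_Chr17g0336851, by 1.1 (adjusted p = 0.035, limma). Lalb_Chr14g0362211 had 1, 4, 2 and 2 in replication 3 at 0, 10, 15 and 20 min, against 0 in all 8 libraries of replications 1 and 2, so that the size of its difference depends on the 1 added. It was tested only because of its values in replication 3, so the direction of its difference was fixed in advance. Genes found in 3 or 4 libraries of replication 3 and in no other library numbered 482 of all genes (2.06%), beside 17 and 21 for replications 1 and 2. Lalb_Chr15g0090581 had 11, 2, 1 and 3 in replication 3, against 0 to 2 in the others, and its call did not hold when control replicate 2 (1.21), control replicate 3 (0.79), any of the 10 min libraries (1.27 to 1.34) or 20 min replicate 2 (1.23) was left out. The COBRA-like call did not hold when control replicate 2 (0.92), 15 min replicate 1 (0.93) or 15 min replicate 3 (0.99) was left out, nor without control replicate 3, any of the 10 min libraries or 20 min replicate 1, where the difference stayed above 1.

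**Figure D4:**
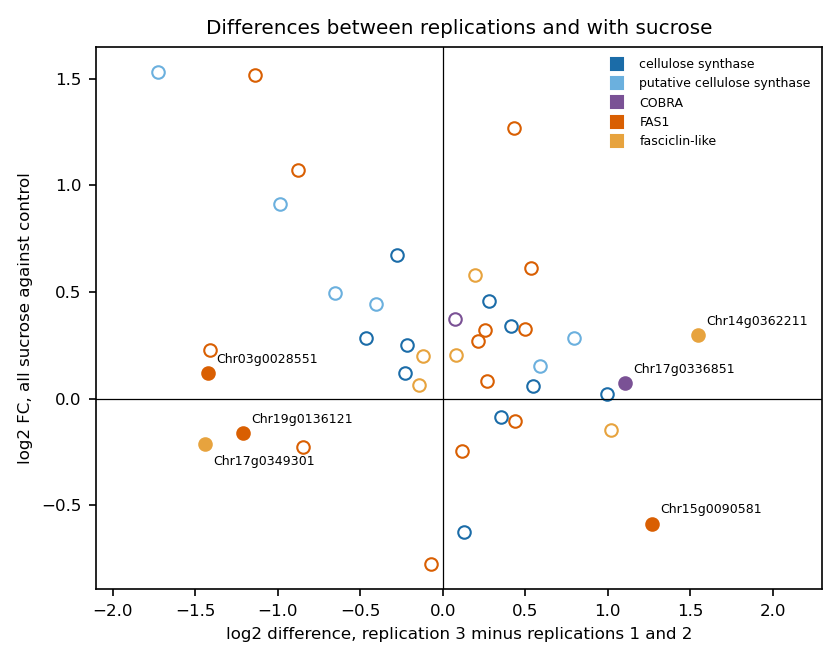
Log2 FC over all sucrose libraries against control (vertical axis) and log2 difference of replication 3 from replications 1 and 2 (horizontal axis) for the 41 genes tested, coloured by class, with filled and named points for genes called between replications. The 6 filled genes lie beyond a difference of 1 in size along the horizontal axis, from -1.44 to 1.55, and between -0.59 and 0.30 along the vertical axis.

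The abundant FAS1 domain gene Lalb_Chr14g0367231 was also lower in replication 3, by a log2 difference of -0.88 (adjusted p = 0.038, limma), below the size threshold. Another FAS1 domain gene, Lalb_Chr24g0400001, was above 0 in 6 of 12 libraries, with 9, 0 and 0 in the control, 11, 2 and 2 after 10 min, 0, 8 and 0 after 15 min, and 0, 9 and 0 after 20 min. Its highest values fell in replication 1 at 0 and 10 min and in replication 2 at 15 and 20 min. Its log2 FC over all sucrose libraries was 0.23 with a standard error of 0.95.

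**Figure D5:**
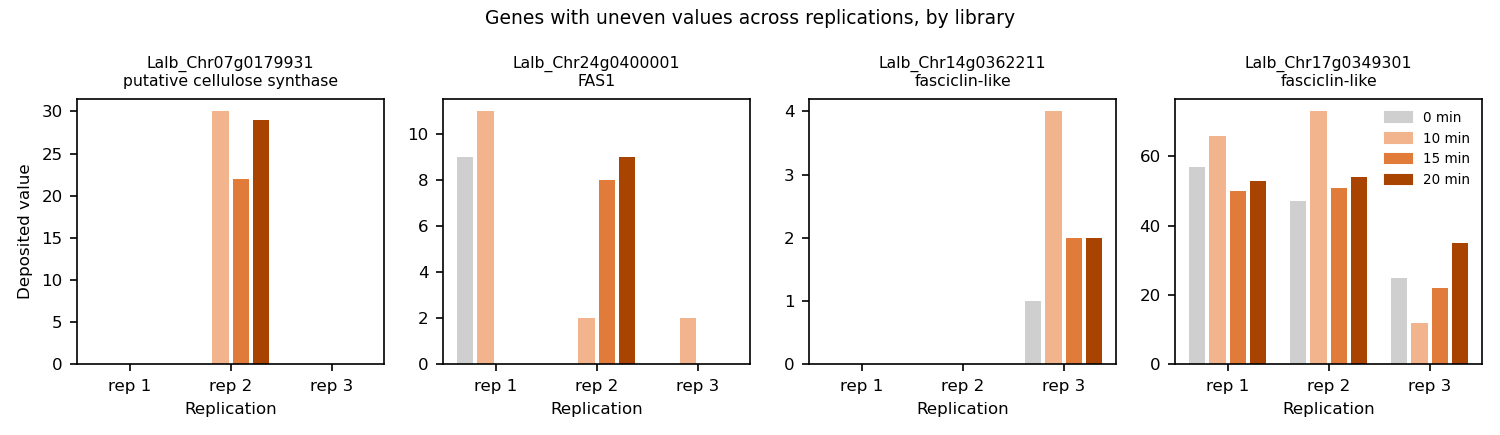
Deposited values (vertical axis, own scale in each panel) of 4 genes in the 12 libraries, grouped by replication and coloured by time in sucrose. Lalb_Chr07g0179931 is listed above 0 in the 3 sucrose libraries of replication 2 alone, Lalb_Chr14g0362211 in replication 3 alone, and Lalb_Chr17g0349301 has its 4 lowest values, 12 to 35, in replication 3.

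Other genes of wall metabolism were picked by protein name. Of 250 such genes 192 were tested, and 4 were up-regulated after 10 min, 5 after 15 min and 5 after 20 min (against 0.423%, 0.486% and 0.381% of all genes), with 0, 0 and 1 down-regulated (0.11%, 0.172% and 0.209%). None of the 38 endoglucanases, 6 sucrose synthases, 7 callose synthases or 3 UDP-glucose pyrophosphorylases tested passed the thresholds. Sucrose synthase and UDP-glucose pyrophosphorylase supply UDP-glucose, and callose synthase uses it for another glucan. At all 3 times the calls included 2 of the 30 expansins and 1 of the 25 xyloglucan endotransglucosylases. Expansins loosen the wall without cutting its polymers, and xyloglucan endotransglucosylases cut and rejoin xyloglucan. The other calls were the arabinogalactan proteins Lalb_Chr06g0163321 (log2 FC 2.22 after 10 min) and Lalb_Chr09g0331161 (2.21 after 20 min), the pectinesterase Lalb_Chr04g0253941 (1.73 after 15 min and 1.60 after 20 min), the laccase Lalb_Chr01g0008421 (1.58 after 15 min) and, lower, the pectinesterase Lalb_Chr04g0261231 (-1.62 after 20 min). No adjusted limma p-value of these calls was at or below 0.05.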

How the data were processed

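The genes, lists and tests were chosen with earlier results of these data known. According to the methods, the authors used an Epi2me workflow in which reads were trimmed (Pychopper), mapped to the CNRS_Lalb_1.0 genome (Minimap2) and counted per gene (Salmon). The values deposited by the authors carry the name CPM but are whole numbers whose sums differ between libraries, so they were treated as a score with unknown scale, and no count test was run. The authors' own comparison table, made with DESeq2, holds fold changes, errors, test statistics and p-values and was not used.

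Values were scaled by median-of-ratios size factors, 1 was added, and log2 values were fitted in R 4.3.3 by limma 3.58.1 (variance trend on) with the 4 time groups of all 12 libraries in 1 fit (19138 genes that reached 1 in 3 or more libraries). All p-values are two-sided. The model was checked on simulated data with large changes in genes with a mean of at least 5 and no differences between replications. Smaller changes and changes in lower genes were not covered by this check. Tables and plots were made in Python 3.11.15 (numpy 2.4.6, pandas 2.3.3, matplotlib 3.10.9). All 23427 identifiers were matched in the CNRS_Lalb_1.0 annotation, the source of coordinates.

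The methods state that each replication had its own flow cell, so same-numbered libraries are paired. The limma errors, intervals and p-values given above for the time comparisons come from the fit without this pairing. Values from the fit with the replicate number as a block are given at the end. After centring genes by time point, same-numbered libraries had a median correlation across genes of 0.289, 0.257 and 0.539 in replications 1, 2 and 3, against -0.305 for libraries of different number and time. The ranges overlapped (-0.010 to 0.326, -0.043 to 0.397 and 0.293 to 0.691, against -0.535 to 0.533). Centring makes the deviations at a time point sum to 0, so the negative median is in part built in and is no independent baseline.

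Genes named were those called, the 3 of highest level and per kb in each of 4 classes (FAS1 domain and fasciclin-like genes together), those with sucrose and control libraries apart, the 2 of smallest p-value per class, the 5 that differed most by replication in each direction, and neighbours within 50 kb. Any other gene was named after its values were seen. The pairs by protein identity and the correction for coding length were not made because the reference used here gives neither proteins nor coding lengths, and a correction for gene span was added after seeing the data.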

Additional observations from a re-analysis of the deposited data

How the results depend on the processing

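The values are low whole numbers of unknown scale with 3 libraries per time, and for genes with a mean of at least 5 the median standard error of a log2 FC was 0.51, which limits the changes that could be resolved. Members up-regulated at 10 min numbered 2 without scaling, in place of 0, and members down-regulated 1 with 0.5 added before the logarithm (Lalb_Chr06g0161661). At 20 min 2 were up-regulated without scaling, 0 with 5 added, 0 with the gene-span correction and 0 without control replicate 2 and 15 min replicate 1 together, in place of 1. Over all sucrose libraries the count of 1 became 0 with library totals scaled, 0.5 added, 5 added, a mean of at least 5, no variance trend, the gene-span correction with or without the replicate block, and without the same pair of libraries. Between replications, 3 higher became 0 with 5 added and 1 with a mean of at least 5, and 3 lower became 6 with library totals scaled, 1 with 5 added and 6 with the gene-span correction. The last correction and the pair left out were chosen after seeing the data, and the cause was not tested.

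Leaving out a library or replication gave 0 to 3 up-regulated after 10 min, and 0 to 2 each after 15 min, after 20 min and over all sucrose libraries, with 0 to 1 down-regulated at 15 min and 0 in the other comparisons with the control, and 1 to 3 higher and 2 to 4 lower in replication 3. The log2 FC of Lalb_Chr17g0336851 over all sucrose libraries, 0.07, ranged from -0.49 to 0.51, and was -0.33 without the pair of libraries. With the replicate block, Lalb_Chr17g0349111 kept its calls (2.02 after 20 min and 1.52 over all sucrose libraries). The pairing changed no other call among the members. The block left each log2 FC as it was, but it changed the errors. Over all sucrose libraries the standard error of Lalb_Chr17g0349111 fell from 0.69 to 0.60. That of Lalb_Chr14g0367231 fell from 0.40 to 0.28, and that of Lalb_Chr04g0247161 from 0.35 to 0.33. For Lalb_Chr06g0161661 the unadjusted limma p-value over all sucrose libraries rose instead.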
